A study of Mus musculus with 38 samples.

Results

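The transforming growth factor beta (TGF-beta) and bone morphogenetic protein (BMP) genes examined here were Tgfb1, Tgfb2, Tgfb3, Tgfbr1, Tgfbr2, Tgfbr3, Bmp2, Bmp4, Bmpr1a and Id1. All 10 were found by gene name on the arrays, where they occupied 15 probes and 42 spots of the 28786 gene names, 41174 probes and 43379 spots that were not controls. No filter on low values was applied, so all 10 genes were tested. RNA came from GFP-positive cells sorted from outgrowths of focal hyperplasias of MMTV-PyMT;actin-GFP mice that had been transplanted into cleared mammary fat pads of FVB/n hosts. MMTV-PyMT places the polyoma middle T oncogene under a mammary tumor virus promoter, which is active in mammary epithelium and in some other organs. The actin promoter drives GFP in donor cells of many kinds, so the sort was for donor origin and not for epithelium. Whether host cells also passed the sort was not tested.

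In the progression experiment, adenoma (n = 5) came from 5-week outgrowths and carcinoma (n = 6) from 18-week outgrowths. Disseminated cells (n = 6) were sorted from the lungs of mice bearing 18-week outgrowths, with the lungs of several mice combined in a sample. Metastases (n = 5) were taken from the lungs after the primary tumor had been removed. In the chemotherapy experiment, control tumors (n = 6) were untreated, regressed tumors (n = 6) were taken 10 days after the first dose of docetaxel, doxorubicin and cyclophosphamide, and resistant tumors (n = 4) were taken 10 days after dose 4. The resistant samples were taken to be the relapsed tumors of the methods, by elimination. Dosing began at the same outgrowth age, so resistant tumors were taken at a later age than regressed ones. Between these groups, number of doses and outgrowth age cannot be told apart. The labels do not say that each sample came from a different animal, so the p-values measure the spread between these samples.

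TGF-beta ligands are secreted in a latent form and, once released, bring type II and type I serine/threonine kinase receptors together. The receptors phosphorylate Smad2 and Smad3, whereas BMP ligands act mainly through Smad1 and Smad5. In normal mammary epithelium TGF-beta is known as a growth inhibitor, and in advanced carcinomas it is associated with invasion and immune suppression. Id1, an inhibitor of basic helix-loop-helix transcription factors, is a direct target of BMP signaling.

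Each value is the log2 ratio of the sample (Cy5) to a Universal mouse reference RNA (Cy3) at a probe, so the levels of different genes cannot be ranked. A gene passed where limma's moderated test gave an adjusted p below 0.05. The sample channel was well above background at 48.4 to 78.9% of spots in the progression arrays and at 50.5 to 64.3% in the chemotherapy arrays. Carcinoma replicate 6, disseminated replicate 6 and metastases replicate 4 stood apart from their groups, with median correlations to the other samples of the group of 0.760, 0.710 and 0.776 across genes. The slides tied the groups into pairs: adenoma and disseminated cells shared slides and a scan day, and so did carcinoma and metastases. Any difference across these pairs cannot be told apart from slide and scan day.

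In disseminated cells, relative to adenoma, Tgfb1, Tgfbr1 and Tgfbr3 rose (as did 8.32% of all genes) and Tgfb2 and Tgfb3 fell (as did 12.3%). These 5 of 10 genes passed where 20.6% of all genes did, and 4 of them changed at least 2-fold (10.5% of all genes). Relative to carcinoma, 4 of 10 passed against a background of 26.6%: Tgfb1 and Tgfbr2 rose, Tgfb2 and Tgfb3 fell, and all but Tgfbr2 changed at least 2-fold (11.6% of all genes). These comparisons share the disseminated samples. The count against adenoma was 2 without disseminated replicate 5. The count against carcinoma was 2 without disseminated replicate 3, 2 without disseminated replicate 5 and 7 without carcinoma replicate 6. The shares of all genes were not taken in these refits, so these counts have no background of their own.

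**Figure D1:**
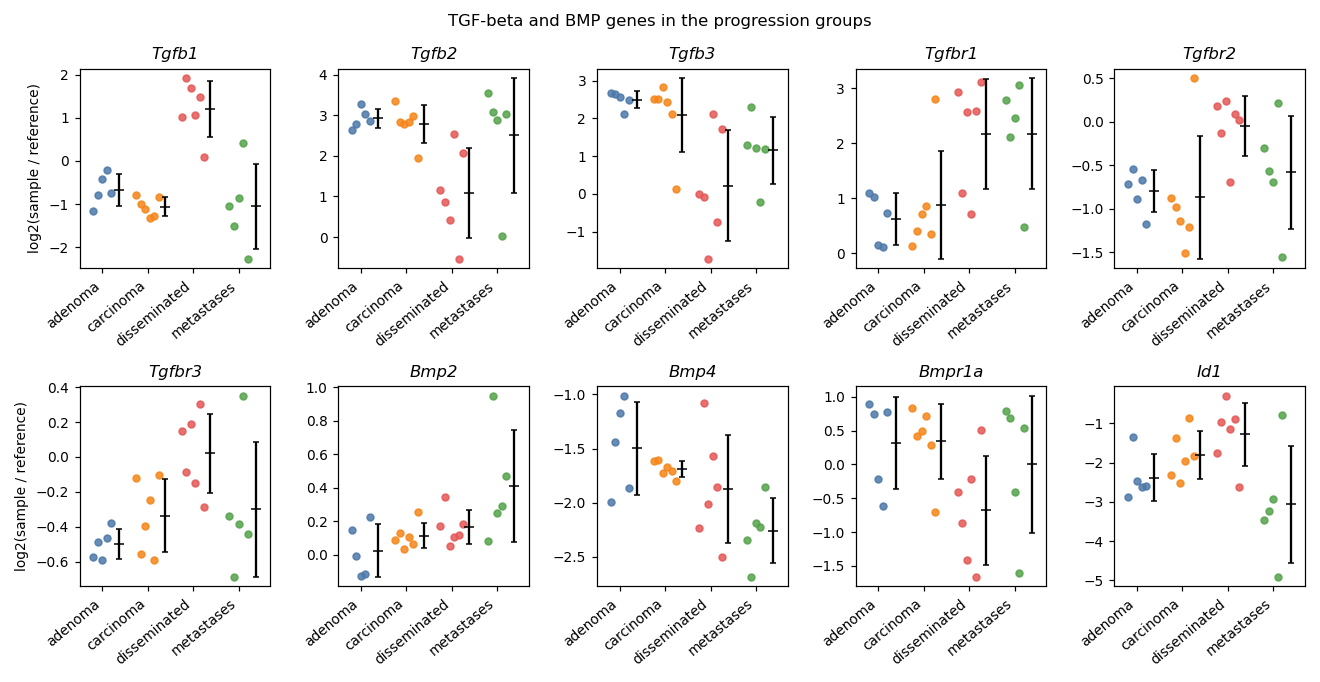
Log2 ratio of sample to reference (vertical axis, a separate scale for each gene) of the 10 genes in the 22 progression arrays. Points are samples in replicate order, and bars give the mean and SD. For Tgfb1 the 6 disseminated samples lie between 0.10 and 1.93, above all adenoma and carcinoma samples.

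Tgfb1 encodes the most widely expressed TGF-beta ligand, and Tgfb2 encodes an isoform common in epithelia. The 250 bases before their annotated starts are shown because these genes moved in opposite directions in disseminated cells. The sequences are from RefSeq on build GRCm38.p6, at chr7:25686752-25687001 on the plus strand and chr1:186705990-186706239 on the minus strand. Capitals mark matches, on either strand, to the GC box GGGCGG, the TATA box TATAAA and the E-box CACGTG.
Tgfb1: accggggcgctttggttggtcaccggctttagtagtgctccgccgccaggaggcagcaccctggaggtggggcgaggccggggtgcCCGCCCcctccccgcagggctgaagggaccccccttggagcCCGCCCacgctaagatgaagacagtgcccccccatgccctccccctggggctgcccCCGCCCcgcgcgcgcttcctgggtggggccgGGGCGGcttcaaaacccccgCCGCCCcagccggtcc
Tgfb2: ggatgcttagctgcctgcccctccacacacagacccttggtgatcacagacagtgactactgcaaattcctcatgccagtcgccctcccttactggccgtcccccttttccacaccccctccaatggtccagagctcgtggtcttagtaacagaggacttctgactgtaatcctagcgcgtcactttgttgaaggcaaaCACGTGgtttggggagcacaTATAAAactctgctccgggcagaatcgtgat
The Tgfb1 window held 5 matches to the GC box and 0 to the other motifs, and the Tgfb2 window held 1 TATA box beginning 31 bases before the start, 1 E-box beginning 51 bases before it and 0 GC boxes. Of 32851 promoter windows of the same length, 32.7% held the GC box, 12.4% the TATA box and 6.02% the E-box. The letters CAGAC, bound by Smad proteins, occurred 2 times in the Tgfb2 window and 0 times in the Tgfb1 window, and in 42.2% of all windows. Windows were at hand for 6 of the 10 genes. These matches are descriptions of the sequence.

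Tgfb1 was read by 1 probe at 22478890 to 22478949 of chromosome 7 (build mm7), spotted 10 times on every array. In the 5 adenomas its log2 ratio was -1.17, -0.80, -0.43, -0.21 and -0.75. The carcinomas ranged from -1.32 to -0.80 with a median of -1.07, and the disseminated samples from 0.10 to 1.93 with a median of 1.27. Every disseminated sample lay above every adenoma and every carcinoma. The 5 metastases read -1.04, -1.51, -0.87, 0.42 and -2.28, so that replicate 4 alone reached the range of the disseminated cells. The mean in disseminated cells was 1.88 ± 0.36 (SE) above adenoma, a 3.68-fold difference (adjusted p = 0.00189), and 2.27 ± 0.34 above carcinoma, or 4.83-fold (adjusted p = 0.000159). Metastases lay 2.27 ± 0.36 below disseminated cells (adjusted p = 0.00059). Adenoma, metastases and carcinoma, in that order downwards, did not differ beyond their spread, with adjusted p of 0.478 to 0.995 for the pairs. Within slides 6, 9 and 10 the disseminated samples exceeded the adenomas by 1.24, 1.92 and 2.36. The SD over the 10 spots of an array had a median of 0.037, against 0.615 between samples of a group. The spots of an array share its amplification, labeling and hybridization. The calls for Tgfb1 held under every alternative run, but none could separate slide and scan day from the differences from carcinoma and metastases.

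Tgfb2 moved the opposite way. The adenomas read 2.65, 2.80, 3.27, 3.05 and 2.86, and the carcinomas ranged from 1.95 to 3.35 with a median of 2.83. The disseminated samples ranged from -0.54 to 2.55 with a median of 1.01. All disseminated samples lay below all adenomas, whereas replicates 4 and 6 lay above carcinoma replicate 6. Tgfb2 fell by 1.84 ± 0.54 (SE) on the log2 scale relative to adenoma, or 3.58-fold (adjusted p = 0.0206), and by 1.70 ± 0.51 relative to carcinoma, or 3.26-fold (adjusted p = 0.0188). Without disseminated replicate 5 neither call held (adjusted p = 0.0562 and 0.0519). The call against adenoma was also lost with the replicate number as a block (adjusted p = 0.0538) and without normalization between arrays (adjusted p = 0.0646). The metastases read 3.56, 3.08, 2.89, 0.021 and 3.02. Their mean was 1.43 ± 0.54 above disseminated cells (adjusted p = 0.0865). Without metastases replicate 4, the sample at 0.021, the difference was 2.05 (adjusted p = 0.00369), and the call was also reached without disseminated replicate 4 or 6. In order of means adenoma, carcinoma and metastases were neighbors whose differences, at most 0.41, did not pass.

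Tgfb3, the isoform prominent in the mammary gland during involution, behaved like Tgfb2. It read 2.67, 2.65, 2.56, 2.11 and 2.48 in the adenomas and ranged from 0.13 to 2.83 in the carcinomas, with a median of 2.48. The disseminated samples spread from -1.72 to 2.13 with a median of -0.039, and replicates 4 and 6, at 2.13 and 1.72, stood above the other 4. The low carcinoma was replicate 6, and the other 5 lay between 2.11 and 2.83. Tgfb3 fell by 2.27 ± 0.59 (SE) relative to adenoma, or 4.83-fold (adjusted p = 0.0114), and by 1.87 ± 0.57 relative to carcinoma, or 3.66-fold (adjusted p = 0.0191). The latter call was lost without disseminated replicate 3 (adjusted p = 0.0514) and in a fit of the 2 groups alone (adjusted p = 0.0625). Metastases, at 1.30, 2.29, 1.20, -0.20 and 1.20, lay between the primary tumors and the disseminated cells, and their differences from adenoma (-1.33, adjusted p = 0.116), carcinoma (-0.93, adjusted p = 0.292) and disseminated cells (0.94, adjusted p = 0.335) did not pass. Within slides 6, 9 and 10, Tgfb3 in disseminated cells differed from adenoma by -1.53, -1.53 and -3.79, and Tgfb2 by -1.24, -1.57 and -2.88.

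**Figure D2:**
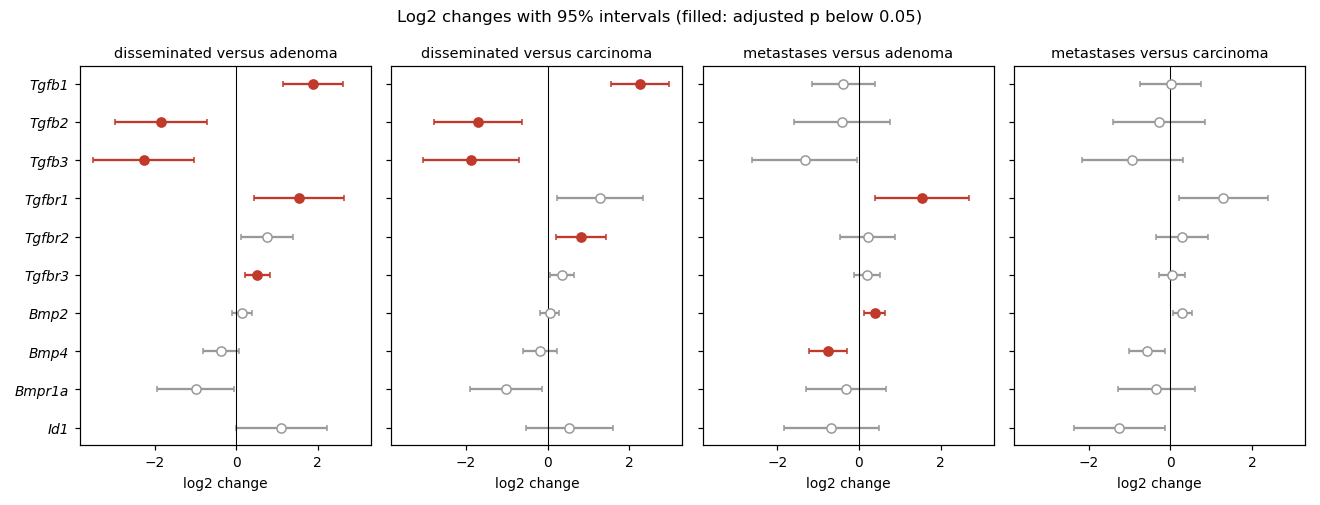
Log2 changes (horizontal axis) with 95% intervals for the 10 genes in 4 progression comparisons. Filled red points passed at an adjusted p below 0.05. In disseminated cells Tgfb1 lies to the right of 0 and Tgfb2 and Tgfb3 to the left, against both adenoma and carcinoma.

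Among the receptors, Tgfbr1, the type I receptor kinase for TGF-beta, read 1.09, 1.03, 0.16, 0.11 and 0.74 in the adenomas. The carcinomas ranged from 0.13 to 2.80 with a median of 0.56. Replicate 6 held the value of 2.80, and the other 5 carcinomas did not exceed 0.86. Disseminated samples ranged from 0.72 to 3.105 with a median of 2.57, and the metastases read 2.78, 2.12, 2.46, 3.05 and 0.47, so 5 of 6 disseminated samples and 4 of 5 metastases exceeded all adenomas. Tgfbr1 rose by 1.54 ± 0.52 (SE) in disseminated cells relative to adenoma, or 2.91-fold (adjusted p = 0.0433), and by 1.55 ± 0.55 in metastases relative to adenoma, or 2.93-fold (adjusted p = 0.0399). Disseminated cells and metastases differed by 0.01, with a 95% interval of -1.09 to 1.11. Both calls against adenoma lay close to the threshold. The call in disseminated cells was lost without any single one of disseminated replicates 1, 3, 5 and 6 or adenoma replicates 2 to 5, and the call in metastases without any single one of metastases replicates 1 to 4 or adenoma replicates 3 to 5. Against carcinoma, without its replicate 6, the rises were 1.67 in disseminated cells (adjusted p = 0.00839) and 1.68 in metastases (adjusted p = 0.0121), whereas with it neither difference passed (1.29, adjusted p = 0.0631, and 1.30, adjusted p = 0.0838). A second Tgfbr1 probe, well above background on 10 of the 22 arrays, gave a difference of 0.31 between disseminated cells and adenoma (adjusted p over all probes = 0.0394) and one of 0.26 between metastases and adenoma, which did not pass (adjusted p over all probes = 0.07).

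Tgfbr2, the type II receptor, read -0.71, -0.54, -0.88, -0.67 and -1.17 in the adenomas. Carcinomas ranged from -1.51 to 0.51 with a median of -1.06, and disseminated samples from -0.70 to 0.24 with a median of 0.056. Carcinoma replicate 6 again held the highest value of its group, above all 6 disseminated samples. Relative to carcinoma Tgfbr2 rose by 0.82 ± 0.29 (SE), or 1.77-fold (adjusted p = 0.0438). Without carcinoma replicate 6 the rise was 1.10 (adjusted p = 0.00164), and the call was lost without any single one of the other carcinoma replicates or disseminated replicates 1, 2, 3, 5 and 6, and with slide as a random block (adjusted p = 0.0523). The other probes annotated to Tgfbr2 disagreed with it: in the same comparison they gave -0.19 (adjusted p over all probes = 0.286) and -0.27 (adjusted p over all probes = 0.0126). The direction for Tgfbr2 therefore depended on the probe. The other probes were much dimmer: their mean log2 intensity over both channels in carcinoma was 7.89 and 7.34, against 13.17 for the first. Metastases read -0.30, -0.57, -0.70, 0.21 and -1.56 and did not pass in any comparison with this probe. Against carcinoma it gave 0.29, whereas 1 of the other probes passed with the opposite sign (-0.24, adjusted p over all probes = 0.0321).

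Tgfbr3, betaglycan, is a co-receptor that presents TGF-beta ligands, Tgfb2 above all. It read -0.57, -0.49, -0.59, -0.46 and -0.38 in the adenomas, in 3 of which the sample channel was well above background. Disseminated samples ranged from -0.29 to 0.30 with a median of 0.031, above all adenomas. The rise was 0.52 ± 0.15 (SE), or 1.43-fold (adjusted p = 0.0189). It was lost without disseminated replicate 5, in the deposited log2 ratios and without normalization between arrays. Carcinomas ranged from -0.59 to -0.11 and metastases from -0.69 to 0.35, and neither differed from the other groups at an adjusted p below 0.05. Without metastases replicate 4, the highest metastasis, Tgfbr3 fell by 0.48 relative to disseminated cells (adjusted p = 0.0132). Against carcinoma it passed without carcinoma replicate 6 (a rise of 0.40, adjusted p = 0.0469) or disseminated replicate 6 (0.42, adjusted p = 0.0397).

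Among the BMP ligands, Bmp4, which is made by mammary stroma and epithelium, read -1.997, -1.44, -1.17, -1.01 and -1.87 in the adenomas and -2.34, -2.68, -2.19, -2.22 and -1.85 in the metastases. The lowest adenomas lay within the range of the metastases. Carcinomas spanned only -1.80 to -1.61, and disseminated samples -2.50 to -1.08. Bmp4 fell by 0.76 ± 0.22 (SE) in metastases relative to adenoma, or 1.69-fold (adjusted p = 0.015). Bmp2, a related ligand, was not well above background on any adenoma, carcinoma or disseminated array, and it was so on 2 of 5 metastasis arrays. The 5 metastases read 0.08, 0.95, 0.25, 0.29 and 0.47, of which replicate 2 was the highest. The adenomas read 0.15, -0.01, -0.13, -0.11 and 0.23. In the sample channel alone, the signal in metastases was 1.21-fold that in adenoma. For this the adenoma arrays were set no lower than their dimmest probe well above background. The log2 ratio differed by 0.38 (adjusted p = 0.0212 in the fit). The Bmp2 call was lost without metastases replicate 2 and without adenoma replicates 3 or 4. With Tgfbr1, these were the 3 of 10 genes that passed between metastases and adenoma, against 28.6% of all genes. The count was 1, Bmp4, without metastases replicate 2, adenoma replicate 3 or adenoma replicate 4.

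Bmpr1a, a type I BMP receptor, read 0.89, 0.74, -0.21, -0.62 and 0.78 in the adenomas, and 0.79, 0.69, -0.40, -1.61 and 0.53 in the metastases. Carcinomas ranged from -0.71, in replicate 6, to 0.83, and disseminated samples from -1.66 to 0.51. With this probe no comparison passed with all samples, and the largest difference, -1.02 between disseminated cells and carcinoma, had an adjusted p of 0.0843. Without carcinoma replicate 6 Bmpr1a fell by 1.23 in that comparison (adjusted p = 0.0362), and without disseminated replicate 6 by 1.26 (adjusted p = 0.0329). A second probe gave -0.14 in the same comparison with all samples (adjusted p over all probes = 0.687). Between metastases and disseminated cells the second probe passed, with a rise of 0.73 (adjusted p over all probes = 0.0405), where the first gave 0.68 (adjusted p = 0.359). The probes had opposite signs between metastases and carcinoma. There the first gave -0.34 (adjusted p = 0.662) and the second 0.59 (adjusted p over all probes = 0.0747). Between metastases and adenoma they gave -0.32 and 0.17, and neither passed.

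Id1 differed between disseminated cells and metastases. It read -3.45, -3.22, -2.94, -4.91 and -0.78 in the metastases, and the disseminated samples ranged from -2.62 to -0.29 with a median of -1.05. Metastasis replicate 5 lay among the disseminated samples, and the other 4 lay below all of them. Id1 fell by 1.78 ± 0.54 (SE) in metastases relative to disseminated cells, or 3.44-fold (adjusted p = 0.0327), and its second probe fell by 1.75 (adjusted p over all probes = 0.0274). With Tgfb1, this made 2 of 10 genes that passed in this comparison, against 13.1% of all genes. The Id1 call was lost without any single one of disseminated replicates 2 to 5 or metastases replicates 1 to 4, which left Tgfb1 alone in 6 of those cases. Adenomas read -2.87, -1.35, -2.47, -2.61 and -2.61, and carcinomas ranged from -2.52 to -0.85, and neither differed from the other groups at an adjusted p below 0.05.

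Between carcinoma and adenoma 0 of 10 genes passed, against 11.7% of all genes, and 0 had an unadjusted p below 0.05 or passed the equal-variance test without moderation. The differences lay between -0.40 (Tgfb3, 95% interval -1.64 to 0.84) and 0.57 (Id1, 95% interval -0.54 to 1.69). Between metastases and carcinoma, which shared slides, 0 of 10 passed in limma and by the unmoderated test against a background of 22%, although 4 had an unadjusted p below 0.05. The share of all genes at that unadjusted threshold was not taken. These 4 passed when slide entered the model as a block, for which the share of all genes was not taken either. In that model Tgfbr1 rose by 1.38 (adjusted p = 0.0395), and Bmp4 fell by 0.61 (adjusted p = 0.0183) and Id1 by 1.20 (adjusted p = 0.0482). The fourth was Bmp2 (adjusted p = 0.0321), which was well above background on 2 of 5 metastasis arrays and on no carcinoma array. In the sample channel alone, its signal in metastases was 1.36-fold that in carcinoma. For this the carcinoma arrays were set no lower than their dimmest probe well above background. Without the block, the log2 ratio of Bmp2 differed by 0.30 (95% interval 0.06 to 0.53). On slides 7, 8 and 11 the difference was 2.49, 0.83 and 0.54 for Tgfbr1, -0.61, -0.38 and -0.93 for Bmp4, and -1.76, -0.20 and -1.88 for Id1. Each of these kept its direction on all 3 slides. Without metastases replicate 5, 3 genes passed, Id1, Tgfbr1 and Bmp4, and 1 gene each passed without metastases replicate 1 (Bmp2) and without carcinoma replicate 6 (Tgfbr1). With slide as a block, Tgfbr2 also passed between disseminated cells and adenoma (0.80, adjusted p = 0.0494). Its other probes, without the block, gave 0.03 (adjusted p over all probes = 0.907) and -0.13 (adjusted p over all probes = 0.28). They were well above background in 3 and 2 of the 5 adenomas.

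Markers of other cell types moved with these groups. The 12 macrophage genes, all measured, had a mean log2 ratio of 0.01 to 0.64 in adenoma, -0.22 to 4.96 in carcinoma, 3.37 to 5.15 in disseminated cells and 1.17 to 5.35 in metastases. The value of 4.96 was that of carcinoma replicate 6, and the other 5 carcinomas did not exceed 0.87. Of the alveolar macrophage list 9 of 10 genes were measured, and their mean was 1.05 to 1.41 in adenoma, 1.80 to 2.73 in carcinoma, 4.13 to 5.41 in disseminated cells and 2.80 to 4.38 in metastases. The 12 luminal and mammary epithelial genes stood at 2.96 to 3.65, 2.19 to 3.88, 0.36 to 3.27 and 0.35 to 4.36 in the same order. Metastasis replicate 4, the lowest in Tgfb2, Tgfb3 and Bmpr1a and the highest in Tgfb1 and Tgfbr1 of its group, was also the lowest in the epithelial list and the highest in the macrophage list. The endothelial list, at -0.08 to 0.19 in adenoma and 0.85 to 2.77 in disseminated cells, and the lung epithelial list, at 0.62 to 1.20 and 1.64 to 2.996, did not overlap between those groups. Basal epithelial genes lay at 1.02 to 1.68 in adenoma and -0.20 to 1.43 in disseminated cells, platelet genes at -0.66 to -0.24 and 0.12 to 1.08, fibroblast genes at -2.56 to -1.22 and -3.65 to -0.93, and T and NK cell genes at 0.66 to 1.48 and 0.64 to 2.40. In a bulk sample, fewer cells of a type and less RNA per cell cannot be told apart, and the part of these cell types in the changes above was not tested. In carcinoma replicate 6 Tgfbr1 was at 2.80 and Tgfb3 at 0.13, both within the range of the disseminated cells. Tgfb1 was at -0.83 there, within the range of the other carcinomas. The alveolar macrophage mean of this sample was 2.73, below the 4.13 to 5.41 of the disseminated cells. Metastasis replicate 3 had an alveolar macrophage mean of 4.38, within that range, and a macrophage mean of 4.63, with Tgfb1 at -0.87. The part of either macrophage list in these values was not tested.

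**Figure D3:**
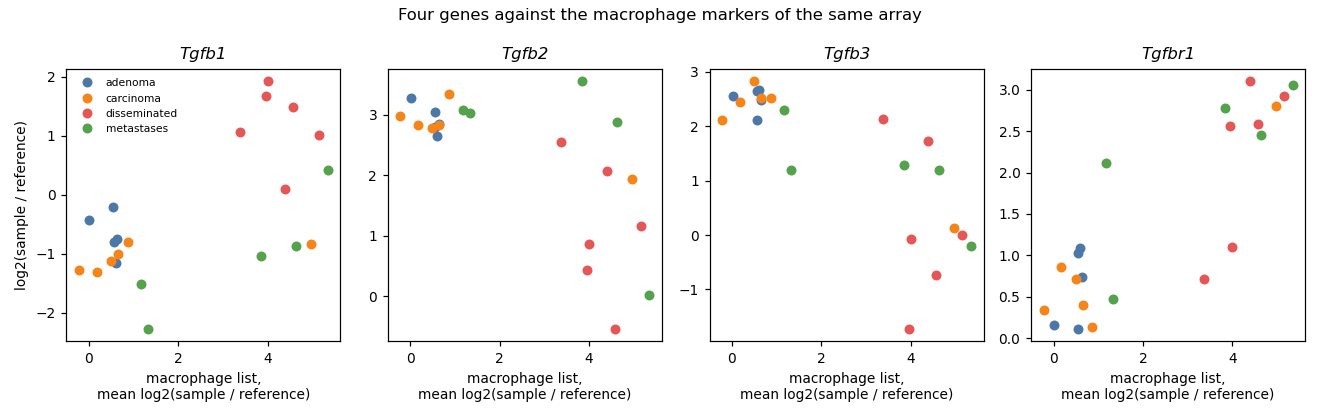
Log2 ratio of Tgfb1, Tgfb2, Tgfb3 and Tgfbr1 (vertical axes) against the mean log2 ratio of the 12 macrophage genes on the same array (horizontal axis), for the 22 progression arrays. The carcinoma at 4.96 on the horizontal axis is replicate 6, at -0.83 for Tgfb1 and 2.80 for Tgfbr1. Its alveolar macrophage mean, which is not plotted, was 2.73. Metastasis replicate 3, at 4.63 on the horizontal axis and -0.87 for Tgfb1, had an alveolar macrophage mean of 4.38.

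The rest of the pathway was described with 94 further genes, of which 93 were measured. Between disseminated cells and adenoma 7 of them rose and 15 fell, and between metastases and carcinoma 8 rose and 12 fell, where 7.99% and 14.1% of all genes did. Metastases against adenoma gave 16 rises and 24 falls, where 28.6% of all genes passed, and carcinoma against adenoma 13 and 7, where 11.7% did. Disseminated cells against carcinoma gave 7 rises and 12 falls (26.6% of all genes passed), and metastases against disseminated cells 7 and 7 (13.1%). Among 25 other ligands, 2 rose and 3 fell in disseminated cells relative to adenoma, and 1 rose and 4 fell in metastases relative to carcinoma. Inhba, which encodes the activin A subunit, rose by 3.48 ± 0.86 (SE) in the former comparison (adjusted p = 0.00839) and by 3.56 ± 0.86 in the latter (adjusted p = 0.0065). Inhbb, the activin B subunit, fell by 1.93 and Gdf5 by 1.36 in disseminated cells. Lefty1, an antagonist of Nodal, fell by 1.21 and Gdf1 by 1.05 in metastases. Of 13 other receptors, 0 rose and 2 fell in disseminated cells, Rgma (a BMP co-receptor) by 2.12 and Acvr1 by 0.58, and in metastases Rgma fell by 2.27 while Acvr2a rose by 0.80.

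Of the 6 Smads, Smad1 fell by 1.24 and Smad5 by 0.73 in disseminated cells relative to adenoma, and the other 4 did not pass. Both transduce BMP signals. In metastases relative to carcinoma Smad1 fell by 0.99 and Smad2, a transducer of TGF-beta signals, rose by 1.14. Among 11 measured genes of ligand activation and storage, 1 rose and 2 fell in disseminated cells: Furin, a protease that cleaves TGF-beta precursors, rose by 1.24, and Itgb6, the subunit of an integrin that releases latent TGF-beta, and Ltbp2, a latent TGF-beta binding protein family member, fell by 3.18 and 2.11. In metastases Itgav rose by 2.09 and Ltbp2 fell by 1.49, and the other 9 did not pass. Of 20 inhibitors, 0 rose and 3 fell in disseminated cells, Pmepa1 by 1.99, Tgif2 by 1.25 and Bambi by 1.10. In metastases 1 rose, Smurf2 by 1.80, and 4 fell, among them Sostdc1 by 1.89 and Bambi by 0.97. Of 18 targets, 4 rose and 3 fell in disseminated cells: Tgfbi rose by 4.20 and Id2 by 2.15, and Ccn2 fell by 2.81. In metastases 3 rose and 1 fell, among them Id3, which rose by 1.27, and Snai1, which fell by 1.99. The median changes of the 6 lists lay between -0.50 and 0.23 in disseminated cells and between -0.27 and 0.12 in metastases, against -0.0090 and -0.048 over all genes. The shares that passed were read against the same 20.6% and 22% of all genes.

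For the 3 genes with the widest range of group means, the closest profiles over the 22 progression arrays were sought among 11078 genes well above background on all of them. Those nearest to Tgfb1 were Abcc5 (Pearson's r = 0.950), Pparg (0.947) and Nr1h3 (0.943). Nearest to Tgfb2 were Pdzrn3 (0.945), Serinc2 (0.943) and Sh3yl1 (0.941), and nearest to Tgfb3 were Unc5cl (0.975), Tead2 (0.947) and Tanc1 (0.946). The arrays share groups and slides, so these values describe likeness of profile only. Pparg is 1 of the genes of the alveolar macrophage list.

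**Figure D4:**
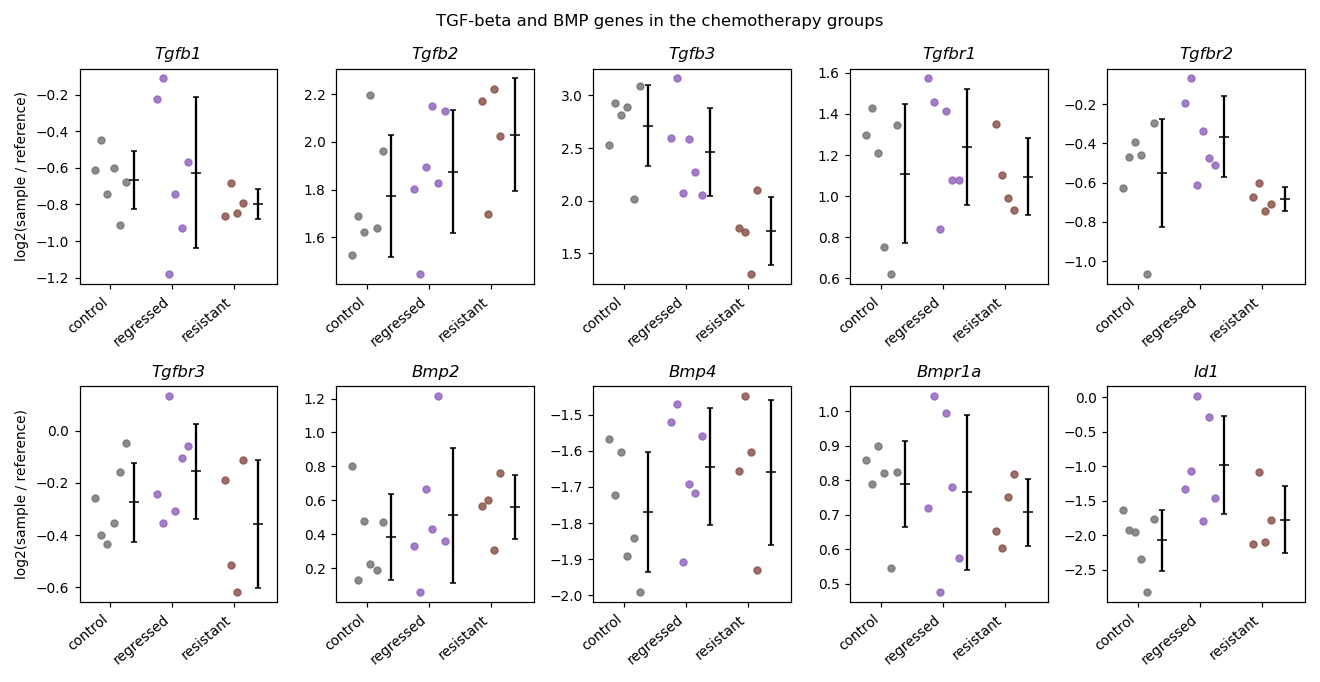
Log2 ratio of sample to reference (vertical axis, a separate scale for each gene) of the 10 genes in the 16 chemotherapy arrays. Points are samples in replicate order, and bars give the mean and SD. For Tgfb3 the resistant samples lie between 1.30 and 2.10, and control replicate 5 (2.02) and regressed replicates 3 (2.07) and 6 (2.06) lie among them.

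In the chemotherapy experiment 0 of 10 genes passed in any comparison in limma or by the unmoderated test. Few genes of any kind did: 0.198% between regressed and control tumors, 0.00695% between resistant and control and 0.271% between resistant and regressed. At an unadjusted p below 0.05 there were 1, 1 and 3 of the 10 genes, and the share of all genes at that threshold was not taken. Tgfb3 ranged from 2.02 to 3.09 in controls with a median of 2.85 and from 2.06 to 3.16 in regressed tumors with a median of 2.43. It read 1.74, 1.70, 1.30 and 2.10 in the resistant tumors, and only resistant replicate 4 exceeded any control or regressed sample. The resistant mean was 1.002 below control (95% interval -1.49 to -0.51, unadjusted p = 0.000504, adjusted p = 0.235) and 0.75 below regressed (95% interval -1.24 to -0.26, unadjusted p = 0.00511, adjusted p = 0.35). On slide 3, which held 2 resistant tumors and 1 control, the difference was -1.39. That control was the highest of its group, at 3.09.

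Id1 ranged from -2.82 to -1.63 in controls with a median of -1.95 and from -1.80 to 0.01 in regressed tumors with a median of -1.20. The resistant tumors read -2.13, -1.09, -2.10 and -1.78. Regressed replicates 3 and 5, at 0.01 and -0.28, were the highest, and replicate 4 was the only regressed tumor within the range of the controls. The regressed mean was 1.09 above control (95% interval 0.45 to 1.72, unadjusted p = 0.00222, adjusted p = 0.217), and the second Id1 probe gave 0.97. With slide as a block the difference was 0.28 (95% interval -0.85 to 1.40). Only slide 1 held both groups, with 2 regressed tumors and 1 control, and there the difference was 0.43. The macrophage list stood at 1.94 to 2.56 in controls 1 to 3 and at -0.17 to 0.14 in controls 4 to 6, and at -0.36 to 1.75 in regressed tumors, and its part in these values was not tested. The epithelial list was at 4.14 to 4.71 in all 16 arrays.

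The other 8 genes differed by less. Tgfb1 ranged from -0.91 to -0.45 in controls, from -1.18 to -0.11 in regressed and from -0.86 to -0.68 in resistant tumors. Tgfb2 lay at 1.53 to 2.20, 1.45 to 2.15 and 1.70 to 2.22 in the same order, and Tgfbr1 at 0.62 to 1.43, 0.84 to 1.57 and 0.93 to 1.35. For these 3 genes the intervals of the differences from control excluded changes of more than 0.59 on the log2 scale in either direction. Tgfbr2 in resistant tumors lay between -0.75 and -0.60 and was 0.32 below regressed tumors (95% interval -0.60 to -0.03, unadjusted p = 0.0316, adjusted p = 0.581). Bmp4, Bmpr1a, Tgfbr3 and Bmp2 differed from control by at most 0.18, and Bmp2 was well above background on 8 of the 16 arrays. Of the 93 pathway genes 1 passed, Cdkn1a, a cell cycle inhibitor induced by TGF-beta and by p53, which rose by 1.52 ± 0.29 (SE) in regressed relative to control tumors (adjusted p = 0.0403). It did not pass when any single control or regressed sample was left out or with slide as a block.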

How the data were processed

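RNA was hybridized to 38 two-color Agilent arrays, 22 of the progression and 16 of the chemotherapy experiment. The authors deposited spot intensity values (mean signal, local background and processed signal of each channel) read with Feature Extraction 10.7, per the labels, together with its flags. A second file that they deposited gives log2 ratios after background correction and normalization in limma. Against the ratios computed here its columns correlated at 0.969 or more, with medians of 0.025 to 0.053 (progression) and 0.0047 to 0.017 (chemotherapy), which settled its scale, centering and direction.

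The software was limma 3.58.1 with statmod 1.5.0 under R 4.3.3. Signals were background corrected by normexp with an offset of 50. Loess was then applied to each array and quantile normalization to the arrays of each experiment together. Spots flagged as outliers were left out, and spots of a probe were averaged. The probe with the highest mean signal stood for its gene, and other probes are given for some of the comparisons. A limma model was fitted for each experiment, with a mean for every group, no covariate and Benjamini-Hochberg adjustment over 28786 genes. Positions are those of the array files (build mm7). Probe sequences were not used here. The progression RNA was amplified in 2 rounds and the chemotherapy RNA in 1, so levels were not compared between the experiments.

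The 10 genes, the 6 pathway lists and the 9 marker lists were chosen with earlier results of these data known. Named genes are the 10, the 3 largest passing changes of each pathway list in metastases against carcinoma, disseminated cells against adenoma and regressed against control tumors, and the 3 closest profiles of the 3 genes with the widest range. A gene that this rule names is not reported here. Alternatives were a normexp offset of 0, the scanner's processed signals, median centering, no normalization between arrays, the deposited ratios, dim probes left out, the mean of a gene's probes, a fit of the 2 groups alone, an equal-variance test without moderation, the slide or the replicate number as a block and each sample left out in turn. The procedure was tested on simulated data. The number of arrays limits the precision.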

Additional observations from a re-analysis of the deposited data

Results flagged for a closer look

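Of 70 sets of values (10 genes in 7 groups), 7 held a highest or lowest sample far from the others by Dixon's ratio, where chance gives about 1 in 20. Carcinoma replicate 6 accounted for 4 of them: it was the lowest carcinoma in Bmpr1a (-0.71, the next 0.29) and Tgfb3 (0.13, the next 2.11) and the highest in Tgfbr1 (2.80, the next 0.86) and Tgfbr2 (0.51, the next -0.88). The other 3 were Tgfb2 in metastases replicate 4 (0.021, the next 2.89), Id1 in adenoma replicate 2 (-1.35, the next -2.47) and Bmpr1a in control replicate 5 (0.55, the next 0.79).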

How the results depend on the processing

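No call on any of the 10 genes reversed under the settings listed, which kept 1 probe or the mean of the probes for a gene, although other Tgfbr2 probes went the opposite way. The calls for Tgfb1 in 3 comparisons and for Tgfb3 between disseminated cells and adenoma held in all settings run. No setting could separate slide and scan day from the Tgfb1 differences of disseminated cells from carcinoma and from metastases, which shared no slide with them. With all groups of an experiment replaced by only the groups compared, 2 genes passed between disseminated cells and carcinoma, 1 between metastases and carcinoma and 1 between metastases and disseminated cells. Between metastases and carcinoma the count went from 0 to 1 with the scanner's processed signals, with median centering and without normalization between arrays, to 2 with the deposited ratios and to 4 with slide as a block. Leaving out each sample in turn gave 2 to 6 genes between disseminated cells and adenoma, 1 to 3 between metastases and adenoma, 2 to 7 between disseminated cells and carcinoma, 0 to 3 between metastases and carcinoma and 1 to 3 between metastases and disseminated cells. The share of all genes was not taken in these settings, so the counts are not set against a background. Leaving out each sample gave 10 to 22 pathway genes between carcinoma and adenoma. With all samples the count there was 20 of 93, where 11.7% of all genes passed, and it was 9 without normalization between arrays. It was 10 without adenoma replicate 2 and 12 without adenoma replicate 3. Between metastases and disseminated cells leaving out each sample gave 6 to 18 pathway genes (14 with all samples, where 13.1% of all genes passed). The count was 8, 6 and 7 there without disseminated replicates 2, 3 and 4, and 7, 9 and 8 without metastases replicates 1, 2 and 3. Between regressed and control tumors leaving out each sample gave 0, as did slide as a block. Tgfbr2 was lost in 15 of 23 settings, and Tgfb2 in disseminated cells against adenoma in 3 of 22 (1 of them the replicate block). Against carcinoma, Tgfb3 and Tgfb2 in disseminated cells were lost in 2 and 1 of 23. Tgfbr3 in disseminated cells against adenoma was lost in 3 of 22. Tgfbr1 was lost in 10 of 22 in disseminated cells and 8 of 21 in metastases. Id1 was lost in 9 of 22, Bmp2 in 4 of 20 and Bmp4 in 1 of 21 (median centering).

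For samples that carry the same replicate number, correlations of their deviations ran from -0.413 to 0.424. In no comparison was every pair over 0.1 or every sample closest to its own number. Between resistant and control tumors, however, 3 of 4 pairs were over 0.1, and 5 of 8 samples were closest to their own number. Whether those samples were paired is not known. With the replicate number as a block, 3 genes passed between disseminated cells and adenoma and 4 between metastases and carcinoma, and the other counts stayed within 1.5 times. Probes near background, such as Bmp2, have compressed ratios.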
